A study of Mus musculus with 24 samples.

Results

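The Kruppel-like factors are zinc finger transcription factors, and 10 of their genes (Klf2, Klf3, Klf4, Klf6, Klf7, Klf9, Klf10, Klf11, Klf12 and Klf13), of 22009 named entries in the expression table, are described here. They were chosen by gene symbol with earlier results of these data known, so their levels are a description and carry no p-values. RNA sequencing was carried out on CD4+ T cells purified from the spleen of adult wildtype C57BL/6 mice, pooled from several animals. Resting cells gave 2 libraries. The other cells were activated with anti-CD3 (5 µg/ml) and anti-CD28 (1 µg/ml) and gave 1 library in each of the Th0, Th1 and Th2 conditions at 4, 8, 12, 16, 20 and 24 h. Th0 cultures received no further reagent, Th1 cultures also received anti-IL-4 (5 µg/ml) and IL-12 (10 ng/ml), and Th2 cultures also received anti-IFNG (5 µg/ml), IL-4 (20 ng/ml) and anti-IL-12 (5 µg/ml). After 16 h of stimulation, in a skewing condition that the labels do not give, further cells received actinomycin, an inhibitor of transcription, and were sampled 0, 1, 2 and 4 h later (4 libraries). No group carried a gene deletion or transgene.

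Kruppel-like factors bind GC-rich and CACCC-type DNA through zinc fingers at the C-terminus, while their N-terminal parts differ and recruit either coactivators such as p300 or corepressors such as CtBP and SIN3. In T cells KLF2 is known as a factor of the resting, recirculating state: it drives S1pr1, which encodes the receptor for leaving lymph nodes, and its own gene is switched on through MEF2 and FOXO factors and silenced by antigen receptor signalling. KLF3 and KLF12 bind CtBP and mostly repress, KLF10 and KLF11 are products of early genes induced by TGF-β and bind SIN3, KLF4 and KLF6 are linked with growth arrest, KLF9 with hormone and circadian signals, KLF7 with neuronal and blood cell development, and KLF13 with late chemokine expression in T cells.

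The start regions of these genes are shown first, because the motifs that the family and its known upstream factors recognise can be read in them. RefSeq promoters (GRCm38.p6, 250 bases before to 50 after each start) were found for 9 members, and Klf10 had no entry. On both strands, a GC box (GGGCGG) lay in 7 of the 9 and in 47.9% of all 19654 promoters, and a CACCC box (CACCC) in 6 of the 9 and in 60.2% of all. The Klf2 window was the single one of the 9 with a MEF2 site (2.61% of all promoters), and the Klf9 window the single one with a forkhead motif (TGTTTAC, 2.9%). A CRE (TGACGTCA, 2.31%) or a CArG box of SRF (1.47%) was found in none of the 9, which says only that these letters are not in these windows. The 250 bases before the start are printed for Klf2 and Klf9, which hold the rarer motifs, and for Klf3, which held 6 GC boxes and 5 CACCC boxes in its window. Capitals mark any of the 6 motifs on either strand, and a GC box and a CACCC box can share a base, as in Klf3.
Klf2, chr8:72318812-72319061, + strand: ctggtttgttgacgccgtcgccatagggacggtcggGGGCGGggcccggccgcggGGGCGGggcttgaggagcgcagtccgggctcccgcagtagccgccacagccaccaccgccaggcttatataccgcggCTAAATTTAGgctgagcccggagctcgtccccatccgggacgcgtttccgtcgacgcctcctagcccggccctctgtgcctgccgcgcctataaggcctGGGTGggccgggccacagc
Klf9, chr19:23140976-23141225, + strand: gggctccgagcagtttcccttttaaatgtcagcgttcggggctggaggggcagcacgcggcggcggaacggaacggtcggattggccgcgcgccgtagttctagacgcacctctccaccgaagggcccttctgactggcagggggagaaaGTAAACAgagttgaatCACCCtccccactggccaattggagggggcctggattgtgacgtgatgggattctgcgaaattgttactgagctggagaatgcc
Klf3, chr5:64803271-64803520, + strand: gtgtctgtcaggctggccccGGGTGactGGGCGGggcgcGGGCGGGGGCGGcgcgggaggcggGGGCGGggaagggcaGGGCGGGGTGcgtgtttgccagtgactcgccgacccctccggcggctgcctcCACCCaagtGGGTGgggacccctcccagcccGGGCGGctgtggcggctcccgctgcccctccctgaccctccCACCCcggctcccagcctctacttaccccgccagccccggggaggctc

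The 3′ untranslated regions hold AU-rich motifs, which are known to bind factors that shorten the life of an RNA, and they are shown because levels after actinomycin are given further on. This search was added after the values had been seen. In the longest protein-coding transcript of GENCODE M21 the heptamer TATTTAT was found in 5 of the 10 members, at 6 places, and in 29.3% of 18819 genes with a 3′ untranslated region of at least 100 bases. These regions were 737 (Klf2) to 6266 bases (Klf7) long in the members, beside a median of 1041 over those genes. A longer region has more places for the heptamer, so nothing is read from the 2 shares. The shorter ATTTA occurred from 0.582 times per kb in Klf13 to 2.87 times per kb in Klf7, with a median of 1.36 per kb over all genes. The windows below are on GRCm38, at most 29 bases long, with the heptamer in capitals.
Klf2, chr8:72320988-72321016, + strand: aaacagactgcTATTTATtggaccttagg
Klf6, chr13:5868490-5868518, + strand: gctacgtctctTATTTATgccttgaggac
Klf6, chr13:5868943-5868971, + strand: cacaccggctgTATTTATtatgtaacatt
Klf7, chr1:64029784-64029812, − strand: gccttctctggTATTTATaatatatcaca
Klf10, chr15:38294920-38294948, − strand: cagtgtcttttTATTTATaggagtttttc
Klf11, chr12:24660911-24660939, + strand: ttttataaaaaTATTTATattgtgctcaa

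The total number of mapped reads, recovered from the values, was between 17512385 and 33017133 per library. The 2 resting libraries carry another tag in their labels than the cultures, so a difference in preparation cannot be told apart from activation. Each culture was sequenced once from 1 pool of cells, so an SE or p-value measures the spread between cultures of that pool and not between mice. Against resting cells this is mainly the spread of the Th0, Th1 and Th2 cultures within time points. Between conditions it is how far the difference varied over the time points. Neither is a spread between replicate cultures. The labels give purified CD4+ cells, and 8 of 8 T cell markers were present with a summed level of 2116 and 2134 RPKM (reads scaled to gene length and to the mapped reads of the library) in resting cells and 1397 to 1679 RPKM at 24 h. Other cells of the spleen were present too: the summed level of 9 macrophage and monocyte markers was 816 and 835 RPKM at rest, 75.7 to 113 RPKM at 4 h and 17.1 to 25.2 RPKM at 24 h. Over the same times 7 red cell genes summed to 38837 and 42382 RPKM, 29387 to 47109 RPKM and 142 to 212 RPKM. B cell markers went from 74.3 and 84.6 RPKM to 10.1 to 19.3 RPKM at 24 h. NK cell markers summed to 114.6 and 114.8 RPKM at rest, 70.3 to 179 RPKM at 4 h and 17.1 to 50.9 RPKM at 24 h. Of them Gzma differed between conditions at 4 h, with 49.9 (Th0), 147 (Th1) and 121 RPKM (Th2). No marker of these lists was at 0 in all libraries. In bulk samples like these, fewer cells of a type and less RNA per cell cannot be told apart.

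Klf2 and Klf6 were the highest members in resting cells. The mean level of Klf2 was 171.5 ± 19.4 RPKM (SD, n = 2) and that of Klf6 was 169.2 ± 3.17 RPKM, and their order differed between the 2 libraries. Klf3 (75.4 ± 2.72 RPKM) and Klf13 (66.9 ± 5.11 RPKM) came next and did not overlap with each other. Below them were Klf4 (20.4 ± 0.782 RPKM), Klf11 (14.4 ± 1.44 RPKM), Klf7 (11.7 ± 0.847 RPKM) and Klf10 (8.97 ± 0.673 RPKM), whose resting libraries followed this order without overlap. Klf9 was low at 1.59 ± 0.256 RPKM, and Klf12 was near the limit of detection at 0.218 and 0.366 RPKM, from 8 and 16 reads. Together Klf2 and Klf6 made up most of the summed level of the 10 genes at rest, with 30.1% and 33.3% from Klf2 and 32.7% and 29.99% from Klf6. After activation the members followed different courses, and they are grouped below by their level at 4 h and after. How many of all genes lie on the same side of both resting libraries was not counted, so this grouping is a description only.

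**Figure D1:**
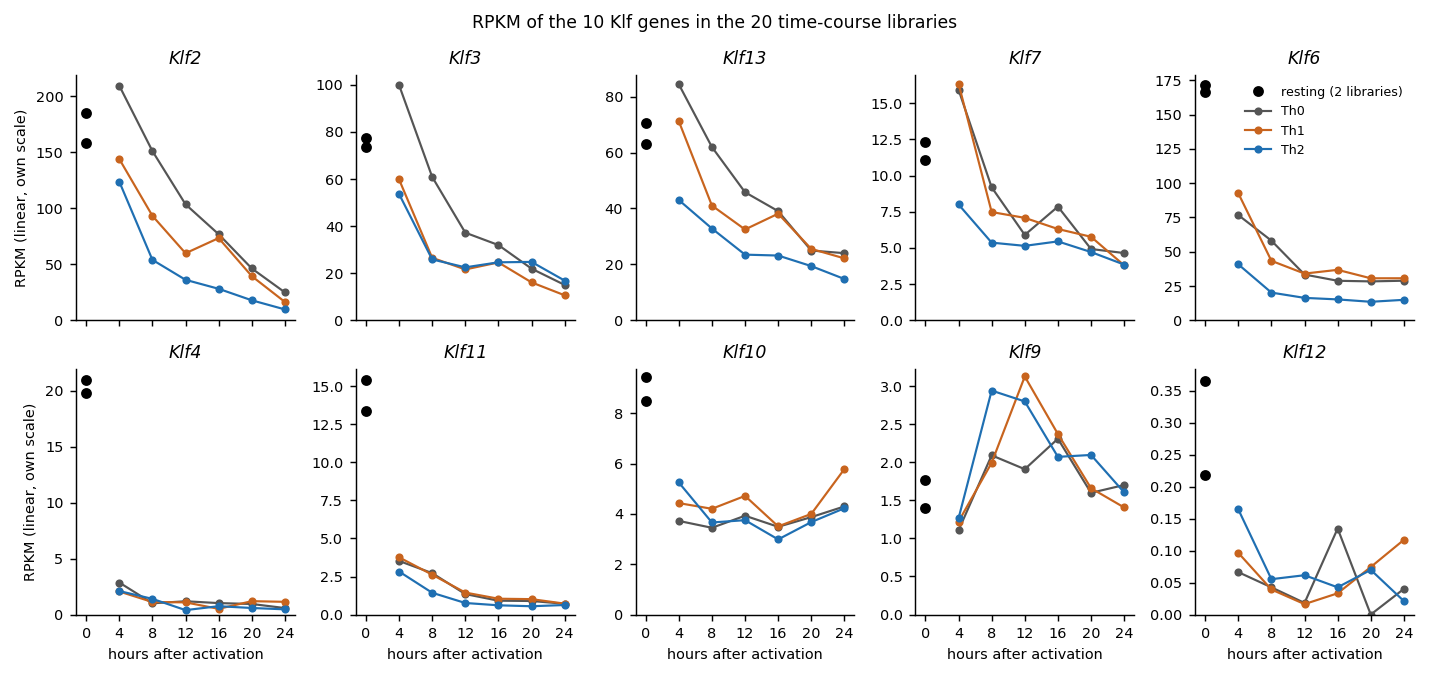
Level of each member in RPKM (linear axis from 0, a scale of its own for each gene) against hours after activation, with resting libraries as black points at 0 h and 1 point for each Th0 (grey), Th1 (orange) and Th2 (blue) culture. Klf2, Klf3, Klf13 and Klf7 were near or above the resting level at 4 h in Th0, Klf6, Klf4, Klf11 and Klf10 were below it in every culture, and Klf9 was highest between 8 and 16 h.

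Klf2, Klf3, Klf13 and Klf7 were above both resting libraries in Th0 at 4 h and below both from 8 h on, while their Th2 cultures were below both already at 4 h. Klf2 (chr8:72319033-72321656, + strand) was at 158 and 185 RPKM in resting cells. In Th0 cultures it was at 209, 151, 103, 76.7, 46.2 and 24.9 RPKM from 4 to 24 h, lower at each of the 5 steps. In Th1 cultures it was at 144, 93.2, 59.8, 73.3, 39.4 and 16.3 RPKM, with the 16 h culture above the 12 h culture. The Th2 cultures had 124, 53.9, 36.1, 28.1, 17.8 and 9.67 RPKM. The Th0 culture at 4 h lay above both resting libraries, and all the other 17 cultures lay below both. The values rest on 457 to 9413 reads per culture, so the 95% Poisson intervals are narrow (8.81 to 10.6 RPKM for the lowest culture). The mean of the 3 cultures was 92.6% of the resting mean at 4 h, 57.9% at 8 h, 34.6% at 16 h and 9.88% at 24 h, and the fitted log2 difference at 24 h was -3.39 (SE 0.54).

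Klf3 (chr5:64803388-64832901, + strand), the CtBP-binding repressor, was at 73.5 and 77.4 RPKM in resting cells. In Th0 cultures its levels were 99.9, 60.9, 37.2, 32.0, 21.9 and 15.0 RPKM from 4 to 24 h. In Th1 cultures they were 59.9, 26.5, 21.6, 24.6, 16.1 and 10.6 RPKM. Th2 cultures had 53.7, 25.9, 22.5, 24.6, 24.8 and 16.9 RPKM, so that the level hardly moved between 8 and 20 h. As for Klf2, the Th0 culture at 4 h was the only one of 18 that was not below both resting libraries. The fitted log2 difference at 24 h was -2.40 (SE 0.35), and the mean level was 18.8% of that at rest. Of its exonic bases 3.59% overlap the antisense gene Gm20033, and whether the counting used strand is not given in the sources used here.

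Klf13 (chr7:63886351-63938915, − strand), tied to chemokine expression in T cells, was at 63.2 and 70.5 RPKM in resting cells. At 4 h Th0 cells had 84.4 RPKM, Th1 cells 71.2 RPKM and Th2 cells 43.0 RPKM, so that the Th0 and Th1 cultures were above both resting libraries and the Th2 culture below both. By 24 h the levels were 24.0, 22.2 and 14.8 RPKM in the same order, and the fitted log2 difference was -1.72 (SE 0.33). Klf7 (chr1:64029447-64122282, − strand) behaved alike at 4 h, with 15.9 RPKM (Th0), 16.4 RPKM (Th1) and 8.01 RPKM (Th2) against 12.3 and 11.1 RPKM at rest. Its levels at 24 h were 4.65, 3.80 and 3.85 RPKM, and the fitted log2 difference was -1.41 (SE 0.26). Reads of Klf7 are less certain, since 39.4% of its exonic bases overlap the antisense genes Gm13748 and Gm26649. The later values of both genes lay below both resting libraries in all 15 cultures from 8 h on.

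Klf6, Klf4 and Klf11 were below both resting libraries in every culture, with a lower mean at 24 h than at 4 h. Klf6 (chr13:5861482-5870394, + strand), an immediate early gene in many tissues, was at 171 and 167 RPKM in resting cells. In Th0 cultures it was at 76.8, 58.1, 33.4, 28.8, 28.4 and 28.9 RPKM from 4 to 24 h, and in Th1 cultures at 92.7, 43.4, 34.1, 36.8, 30.6 and 30.7 RPKM. The Th2 cultures had 40.8, 20.2, 16.3, 15.2, 13.5 and 14.9 RPKM. All 18 cultures were below both resting libraries, and within each condition the level changed little after 12 h. The mean was 41.4% of the resting mean at 4 h, 16.5% at 12 h and 14.7% at 24 h, while Klf2 had reached 38.7% at 12 h. The fitted log2 differences of Klf6 were -1.35 (SE 0.50) at 4 h and -2.81 (SE 0.50) at 24 h.

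Klf4 (chr4:55527143-55532466, − strand), a factor of growth arrest that is also known from monocytes, was at 19.8 and 21.0 RPKM in resting cells. At 4 h the Th0, Th1 and Th2 cultures had 2.86, 2.06 and 2.10 RPKM, 11.5% of the resting mean, and from 8 h on all 15 cultures lay between 0.396 and 1.401 RPKM. This was the greatest early difference among the members, with a fitted log2 difference of -2.89 (SE 0.28) at 4 h and -4.13 (SE 0.28) at 24 h. The macrophage and monocyte markers given above moved with it, from 816 and 835 RPKM at rest to 75.7 to 113 RPKM at 4 h. Over the 20 time-course libraries, the genes whose pattern was most like that of Klf4 included Csf1r and Vcam1 of that list. Without the resting libraries the correlation was lower, at 0.866 with Csf1r and 0.840 with Vcam1. The part of these markers in the result was not tested.

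Klf11 (chr12:24651274-24662789, + strand), a TGF-β-inducible early gene, was at 15.4 and 13.4 RPKM in resting cells. In Th0, Th1 and Th2 cultures it was at 3.52, 3.76 and 2.83 RPKM at 4 h, and at 0.709, 0.717 and 0.626 RPKM at 24 h. The cultures were below both resting libraries without exception, and in Th0 and Th1 each of the 5 steps went down. The mean was 23.4% of the resting mean at 4 h and 4.75% at 24 h, with fitted log2 differences of -1.95 (SE 0.24) and -3.65 (SE 0.24).

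Klf10 (chr15:38291463-38300706, − strand), the other TGF-β-inducible member, was low early and then stayed level. It was at 8.49 and 9.44 RPKM in resting cells, from 511 and 677 reads. In Th0 cultures it was at 3.72, 3.45, 3.93, 3.49, 3.87 and 4.30 RPKM from 4 to 24 h, in Th1 cultures at 4.43, 4.203, 4.72, 3.504, 4.00 and 5.78 RPKM, and in Th2 cultures at 5.25, 3.66, 3.75, 2.99, 3.68 and 4.22 RPKM. All 18 cultures were below both resting libraries. The mean lay between 37.1% and 53.2% of the resting mean at every time point. In each condition the level was higher at 24 h than at 16 h, as in Th2 with 4.22 RPKM (95% interval 3.78 to 4.71 RPKM) and 2.99 RPKM (2.61 to 3.40 RPKM). The fitted log2 difference was -0.94 (SE 0.16) at 4 h and -0.86 (SE 0.16) at 24 h, against -1.95 and -3.65 for Klf11 at the same times.

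Klf9 (chr19:23141226-23168134, + strand), known for its response to hormones, was the single member above both resting libraries in all 9 cultures from 8 to 16 h. Resting cells had 1.77 and 1.41 RPKM, from 114 and 108 reads. At 4 h all 3 cultures were below both, with 1.11 (Th0), 1.22 (Th1) and 1.26 RPKM (Th2). The 95% intervals of these cultures overlapped that of resting library 2 (1.15 to 1.70 RPKM). From 8 to 16 h the cultures lay between 1.91 and 3.13 RPKM. The 95% interval of resting library 1 was 1.46 to 2.12 RPKM. Intervals of the Th0 cultures at these times, of Th1 at 8 and 16 h and of Th2 at 16 h overlapped it. The highest culture was Th1 at 12 h with a 95% interval of 2.80 to 3.48 RPKM, and in Th2 the highest was at 8 h with 2.94 RPKM (2.54 to 3.40 RPKM). At 24 h the cultures had 1.70, 1.41 and 1.61 RPKM, all 3 between the resting values. The mean was 165% of the resting mean at 12 h and 99.0% at 24 h, and the fitted log2 difference was 0.56 (SE 0.18) at 12 h and -0.01 (SE 0.18) at 24 h. The sign at 24 h depended on the scaling: it was 0.66 under quantile normalization and 0.10 when libraries were scaled by the median of ratios.

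Klf12 (chr14:99870632-100284679, − strand), the other CtBP-binding member, had between 0 and 6 reads in each of the 18 cultures, so no course can be read. Its highest culture value was 0.165 RPKM, below both resting libraries, and the Th0 culture at 20 h had 0 reads, which allows up to 0.0753 RPKM. The reads fitted a length of 1856 bases, whereas the longest annotated transcript has 5890. It did not reach a mean of 1 RPKM and was left out of the fits.

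Across all genes, limma was fitted to log2(RPKM + 0.5) over the 20 time-course libraries for 10897 genes whose mean over these libraries reached 1 RPKM, 9 of them members. A gene passed at a adjusted p under 0.05 and a difference of at least 2-fold. Members past the threshold and lower than resting numbered 3 at 4 h (Klf4, Klf6 and Klf11), where 7.97% of all genes tested were lower and past it. They numbered 5 at 8 h (with Klf3 and Klf10; 12.5% of all genes), 7 at 12 h (with Klf2 and Klf13; 16.4%), 7 at 16 h (14.5%), 8 at 20 h (with Klf7; 16.1%) and 7 at 24 h (without Klf10; 17.4%). No member was higher and past the threshold at 24 h, where 12.7% of all genes were. The choice of the members used these contrasts, so nothing is read from these counts. The median fitted log2 difference of the 9 members was -0.29 at 4 h and -2.40 at 24 h, beside -0.04 at both times over all genes. Klf6 at 4 h was near the threshold: it passed in 4 of 15 alternatives, and not without resting library 1 or 2 or without the Th0, Th1 or Th2 cultures. Klf10 at 4 h was near it from the other side and passed in 3 of 15: with a pseudocount of 0.1, without resting library 1 and without Th2. When the mean had to reach 5 RPKM no member passed at 4 h, and Klf4 and Klf11 were not tested.

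Th2 cultures differed from Th0 cultures most for Klf2 and Klf6, and Th1 from Th0 cultures most for Klf3. Klf2 was highest in Th0 and lowest in Th2 at all 6 time points, and each step of this order was larger than the counting error of its libraries. The ratio of Th2 to Th0 was 0.591 at 4 h (95% interval 0.570 to 0.612) and between 0.349 and 0.389 from 8 h on. The ratio of Th1 to Th0 lay between 0.578, at 12 h, and 0.955, at 16 h. Over the 6 time points, with time as a factor, the fitted log2 difference was -1.31 (SE 0.12) for Th2 minus Th0, -0.82 (SE 0.12) for Th2 minus Th1 and -0.48 (SE 0.12) for Th1 minus Th0.

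Klf6 had another order, with Th2 lowest at all 6 times and Th0 and Th1 close together. The ratio of Th2 to Th0 was between 0.348 and 0.532 and that of Th2 to Th1 between 0.414 and 0.487, all beyond counting error. Th1 was above Th0 beyond counting error at 4 times and below it at 1, with ratios from 0.747 to 1.28. The fitted log2 difference was -1.05 (SE 0.09) for Th2 minus Th0, -1.12 (SE 0.09) for Th2 minus Th1 and 0.07 (SE 0.09) for Th1 minus Th0.

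Klf13 and Klf11 were also lower in Th2 than in Th0 and Th1 at all 6 times. For Klf13 the ratio of Th2 to Th0 was between 0.510 and 0.777 and the fitted log2 difference was -0.77 (SE 0.09). For Klf11 the ratio was between 0.526 and 0.882, with a fitted difference of -0.40 (SE 0.11) that adding 0.5 RPKM to low values makes smaller. Klf7 was lower in Th2 than in Th0 at 6 of 6 times and than in Th1 at 5 of 6, with ratios to Th0 from 0.502 at 4 h to 0.957 at 20 h. No read counts could be recovered for these 3 genes, so counting error is not given.

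Klf3 turned its order in the course of the culture. Th1 was below Th0 at all 6 times, with ratios of 0.436 to 0.769 and a fitted log2 difference of -0.66 (SE 0.15). Th2 was at 0.425 of the Th0 level at 8 h but at 1.13 and 1.12 times the Th0 level at 20 and 24 h, and at 1.54 and 1.59 times the Th1 level. Klf10 was slightly higher in Th1 than in Th0 at all 6 times, beyond counting error at 4 of them, with ratios of 1.005 to 1.35. Klf9 was above Th0 in Th2 beyond counting error at 3 times and not below it beyond counting error at any. Klf4, at about 1 RPKM, had no constant order, with Th2 to Th0 ratios from 0.333 to 1.396.

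**Figure D2:**
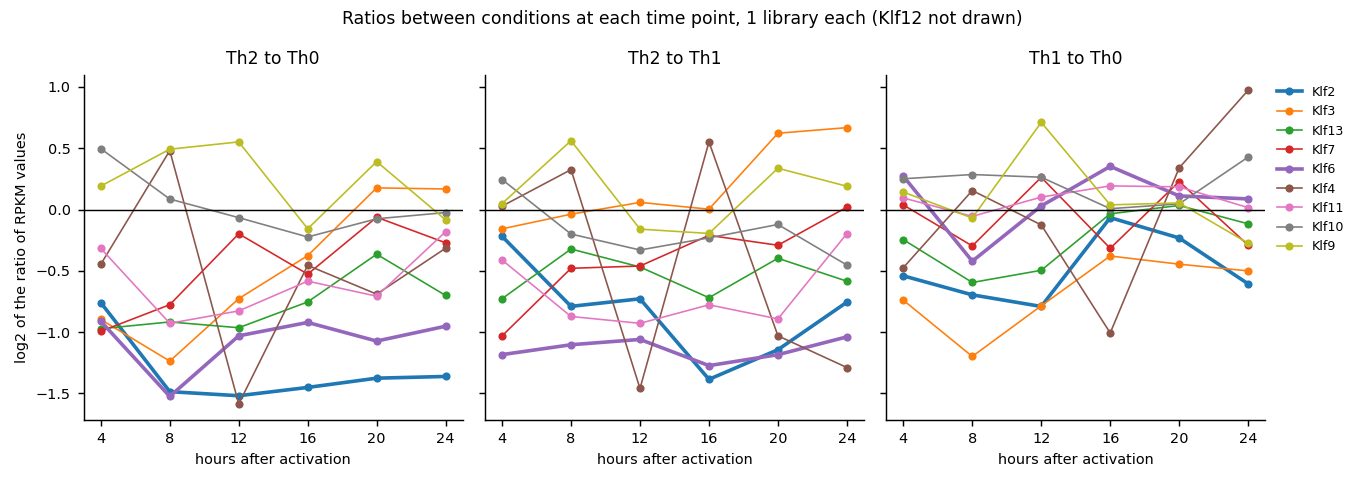
Log2 ratio of RPKM values between conditions (y axis, all panels on 1 scale) against hours after activation, 1 library per condition and time, with 1 line per member and the zero line in black. Klf2 and Klf6 (thick lines) stayed below zero for Th2 against Th0 and Th2 against Th1 at all 6 times, while Klf3 moved from below to above zero for Th2 against Th0.

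In the fit over the 18 cultures, 2 members (Klf2 and Klf6) of 9 were lower in Th2 than in Th0 past the threshold, where 1.83% of 10737 genes were. For Th2 against Th1 this held for 1 member (Klf6), with 1.39% of all genes, and for Th1 against Th0 for 0 members by limma, with 0.317% of all genes. At an unadjusted p under 0.05, 6 of the 9 were lower in Th2 than in Th0 (21.8% of all genes), 5 in Th2 than in Th1 (14.9%) and 3 in Th1 than in Th0 (10.2%), while 0 were higher in Th1 than in Th0 (6.19%). The members were picked with these values in view, and nothing is read from the counts. Klf6 was near the 2-fold limit for Th2 minus Th0, at -0.96 without the 8 h cultures and -0.97 with only 12 to 24 h. Medians over the 9 members were -0.44 for Th2 minus Th0, -0.38 for Th2 minus Th1 and -0.02 for Th1 minus Th0, beside 0.002, 0.02 and -0.01 over all genes.

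These courses changed which member was most abundant. The summed level of the 10 genes was 524 and 557 RPKM at rest, and at 24 h it was 105 RPKM in Th0 cells, 92.7 RPKM in Th1 cells and 67.0 RPKM in Th2 cells. Klf2 made up 42.1% of the sum in Th0 at 4 h and 23.7% at 24 h, where Klf6 was first with 27.6%. In Th1 at 24 h Klf6 was first with 33.1%, and Klf2 was the third with 17.6%. In Th2 Klf3 was first at 20 h (28.5%) and at 24 h (25.2%), and Klf2 was down to 14.4% at 24 h.

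**Figure D3:**
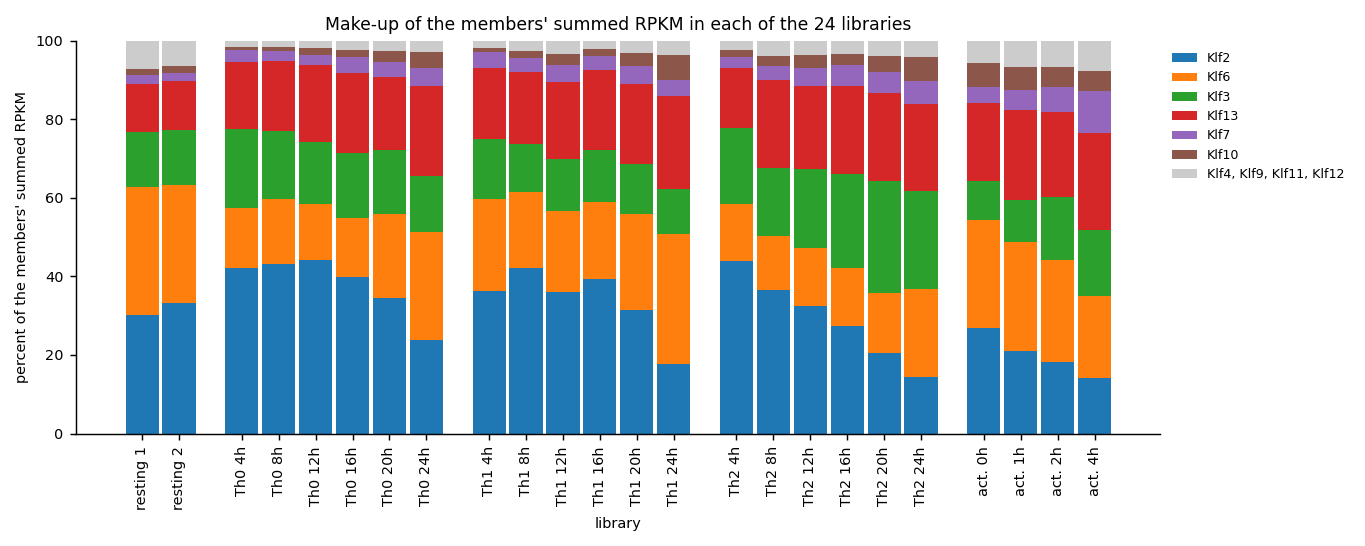
Share of each member in the summed RPKM of the 10 genes (y axis, percent, from 0 to 100) in each of the 24 libraries, grouped as resting, Th0, Th1, Th2 and actinomycin (act.), with Klf4, Klf9, Klf11 and Klf12 joined in grey. The Klf2 share was 14.4% in Th2 at 24 h, against 30.1% and 33.3% at rest.

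With actinomycin, levels were measured at 0, 1, 2 and 4 h in 1 library each, so values have no replicate check and are relative to all mapped RNA. The 0 h library lay outside the range of the 16 h cultures of the time course for all members other than Klf2, Klf6 and Klf13. Klf10 was at 7.36 RPKM against 2.99 to 3.504 RPKM there, Klf11 at 3.20 against 0.607 to 1.04 RPKM and Klf3 at 11.9 against 24.6 to 32.0 RPKM. Klf9 was slightly above that range, at 2.47 against 2.07 to 2.37 RPKM. Klf2 lay inside it, at 32.3 against 28.1 to 76.7 RPKM. Levels are therefore compared within the 4 libraries. Macrophage and monocyte markers summed to 77.2 to 95.3 RPKM in them, against 36.7 to 53.2 RPKM in the 12 h cultures and 17.1 to 25.2 RPKM at 24 h. B cell markers summed to 3.65 to 4.69 RPKM, against 10.1 to 19.3 RPKM at 24 h. The part of other cells in these levels, Klf4 among them, was not tested.

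Klf2 and Klf9 had the steepest declines. Klf2 was at 32.3, 18.3, 11.1 and 7.80 RPKM, from 1535 down to 260 reads, so that 24.2% was left at 4 h (95% counting interval 21.1% to 27.6%). Klf9 was at 2.47, 1.71, 0.507 and 0.543 RPKM, with 22.0% left (14.7% to 32.1%). Klf6 was at 33.2, 24.2, 16.0 and 11.4 RPKM with 34.4% left (31.9% to 37.1%). These levels were lower at each step, other than the last step of Klf9, whose 31 and 32 reads do not differ beyond counting error. Klf10 was at 7.36, 5.19, 3.15 and 2.75 RPKM with 37.3% left (31.0% to 44.7%), Klf11 had 49.95% left and Klf13 had 56.8% left. Klf3 kept 78.6%, and its 1 h library was already at 77.7%. Klf7 was at 119% and Klf4 at 170% of the 0 h level at 4 h, and the slope of Klf7 turned from 0.07 to -0.14 log2 per hour without the 4 h library. Klf12 had 0 reads in 3 of the 4 libraries.

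The slope of log2(RPKM + 0.1) per hour was -0.53 for Klf9, -0.50 for Klf2, -0.38 for Klf6 and -0.35 for Klf10 (SE 0.22, 0.10, 0.06 and 0.10 over 4 libraries). Of 10571 genes whose mean in these libraries reached 1 RPKM, 0.293% had a steeper slope than Klf9, 0.454% than Klf2, 1.72% than Klf6 and 2.36% than Klf10. The median over all genes was 0.002 and that of the 9 members was -0.24. Of the 5 members with a TATTTAT heptamer, Klf2, Klf6, Klf10 and Klf11 had a negative slope and Klf7 a positive one. Of those without one, Klf9, Klf13 (-0.21) and Klf3 (-0.07) had a negative slope and Klf4 a positive one, so the slopes of both sets overlapped. The slopes rested on the 4 h library: without it the slope was -1.04 for Klf9, -0.76 for Klf2, -0.53 for Klf6, -0.60 for Klf10, -0.42 for Klf13 and -0.13 for Klf3. Without the 0 h library it was -0.38 for Klf2 and -0.0013 for Klf3.

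**Figure D4:**
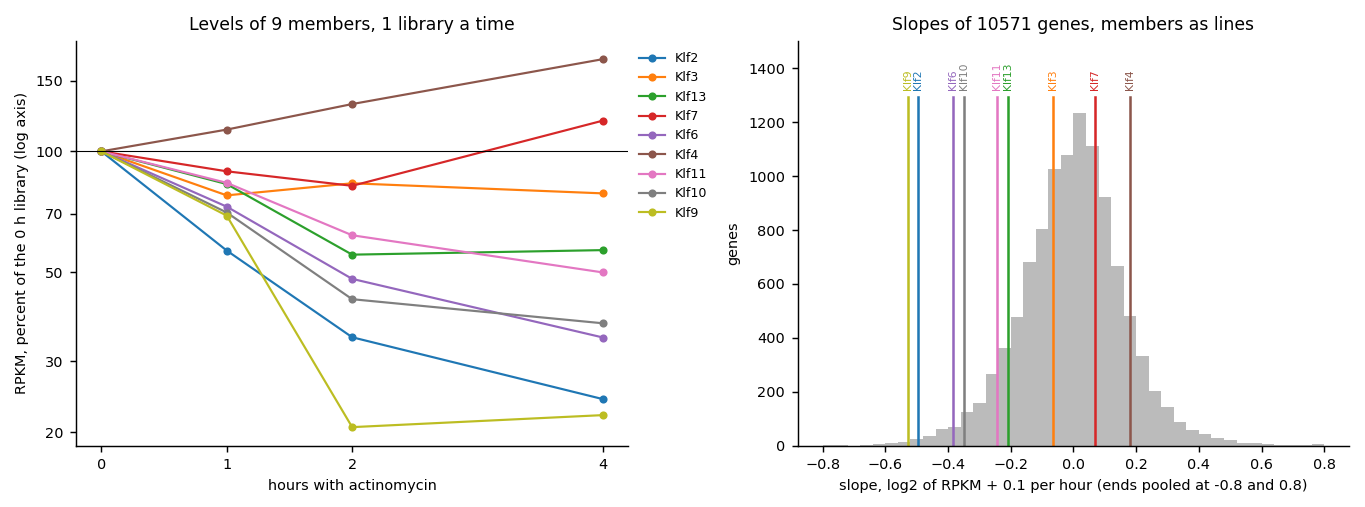
Left, RPKM as a percent of the 0 h library (log axis) against hours with actinomycin for 9 members, 1 library a time. Right, histogram of the slopes of 10571 genes (x axis, log2 of RPKM + 0.1 per hour; y axis, number of genes) with the members as vertical lines, of which Klf9 (-0.53) and Klf2 (-0.50) lie farthest left and Klf4 (0.18) farthest right.

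Pairs of members were compared by the correlation of log2(RPKM + 0.5) over the 20 time-course libraries, as a description, since all points share the libraries and the time course. Over 36 pairs r was between -0.463 and 0.966, highest for Klf2 and Klf13. The 8 pairs with Klf9 all had r between -0.463 and -0.216. Among all 10896 other genes, those most like Klf2 were Pyhin1 (r = 0.984), Irf7 (0.983) and Rasa3 (0.982), those most like Klf3 were St6gal1, Map1lc3b and Arhgef11 (0.965 to 0.975), and those most like Klf13 were Zfp652, Fam134c and Sun2 (0.986 to 0.987). The most alike for Klf7 were Zfp871, Dennd6a and Tnrc6b (0.963 to 0.969), for Klf6 Tmem154, Polr3gl and Cntrl (0.971 to 0.977), for Klf11 Slc25a21, Pglyrp2 and Sgk1 (0.980 to 0.984) and for Klf4 Csf1r, Atp1b2 and Vcam1 (0.977 to 0.981). Klf9 was most like Spn, Tdrkh and Zfp202 (0.849 to 0.861). Klf10 was most like Pilra, Junb and Nudt4 (0.90 to 0.902). Slc25a21, Atp1b2 and Pilra did not reach a mean of 1 RPKM over the 18 cultures, so they were compared only because they were higher at rest. Without the resting libraries r was 0.529 for Klf10 with Junb and 0.716 with Nudt4. For Klf4 it was then 0.866 with Csf1r and 0.840 with Vcam1. In order of likeness, Sgk1 was then at place 137 for Klf11 and Cntrl at 38 for Klf6, while Pyhin1 stayed at 1 for Klf2 and St6gal1 at 1 for Klf3.

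The 4 genes reported of those tied to KLF2 in T cells all fell at 24 h against resting cells, with adjusted p-values from limma. Of all genes tested, 17.4% were lower and past the threshold at 24 h. This list and the following ones were drawn up with results of these data known. The p-values of their genes are therefore not independent evidence, and nothing is read from their counts. S1pr1, the sphingosine 1-phosphate receptor, was at 132 and 135 RPKM at rest and at 17.0, 11.2 and 8.94 RPKM in Th0, Th1 and Th2 at 24 h (log2 difference -3.43, SE 0.57, adjusted p = 7.04e-05). Itgb7, an integrin chain of gut homing, was at 223 and 231 RPKM and then 45.2, 44.1 and 16.9 RPKM (-2.79, SE 0.60, adjusted p = 0.000689). The remaining genes, Il6ra (-2.20) and Cxcr3 (-1.77), fell too, and the median of the 4 was -2.49 beside -0.04 over all genes. The list gives no direction in which KLF2 acts on each gene, and a link of these falls with Klf2 was not tested. At 4 h only Itgb7 of the 4 had fallen (-2.32, adjusted p = 0.00713 by limma), as had 7.97% of all genes tested. S1pr1 was then at 0.01, and the median of the 4 was -0.26.

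Of the 6 FOXO and MEF2 genes, upstream factors of Klf2, 4 fell at 24 h, as did 17.4% of all genes tested. They were Foxo3 (-1.58, SE 0.12, adjusted p = 1.39e-08 by limma), Foxo4 (-1.53, SE 0.19), Foxo1 (-1.37, SE 0.13) and Mef2c (-1.32, SE 0.33). Mef2c was at 2.14 and 2.15 RPKM at rest and lost its call under quantile normalization (-0.62). Mef2a (-0.71, SE 0.12) and Mef2d (-0.52, SE 0.16) were not 2-fold lower. The 4 ubiquitin ligases of KLF2 had 0 past the limma threshold in either direction, with 3 lower at an unadjusted p under 0.05, as were 35.2% of all genes, and values from -0.69 for Smurf1 to -0.01 for Fbxw7. Of 10 TGF-β pathway genes 3 fell (17.4% of all genes tested), and the median of the list was -0.31. The 3 were Smad7, an inhibitory SMAD (-2.87, SE 0.22, adjusted p = 1.34e-08 by limma), Smad3 (-1.90, SE 0.20) and the receptor gene Tgfbr2 (-1.89, SE 0.20). Smad2 (0.42, SE 0.11) and Tgfbr1 (0.36, SE 0.25) had the highest values and were not 2-fold higher.

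The partners of these factors were tested in the same way. Of 9 CtBP and SIN3 corepressor genes 8 were tested and 0 passed the limma threshold at 24 h, with 5 higher and 1 lower at an unadjusted p under 0.05 and a median of 0.42. Of all genes, 33.3% were higher and 35.2% lower by that criterion. Hdac2, a deacetylase, was just under 2-fold at 0.9986 (SE 0.17), and it passed, making the count 1, in 6 alternatives with values of 1.0034 to 1.1407. Sap30 was at 0.65 and Ncor1 at -0.70. Of the 4 coactivator genes Ep300 (-1.13, SE 0.15) and Kat2b (-1.45, SE 0.53) fell, as did 17.4% of all genes tested. Crebbp (-0.79) and Kat2a (0.45) did not pass. Kat2b lost its call without either resting library or without the Th1 cultures, and Ep300 lost it when libraries were scaled by the median of ratios (-0.99).

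Among 16 other Klf and Sp genes 7 were high enough to be tested and 3 fell at 24 h, as did 17.4% of all genes tested. Klf1, the factor of red cell development, was at 45.6 and 51.7 RPKM at rest and at 0.194, 0.306 and 0.204 RPKM at 24 h (log2 difference -6.06, SE 0.25, adjusted p = 3.43e-12 by limma). The red cell genes given above were also lower at 24 h than at rest. At 4 h their sum spanned the resting values, while Klf1 was at 23.5, 18.9 and 31.4 RPKM in Th0, Th1 and Th2. The part of red cells in the Klf1 level was not tested. Sp4 (-1.70, SE 0.22) and Sp2 (-1.20, SE 0.14) fell as well, Sp3 (-0.86, SE 0.20) passed under quantile normalization alone (-1.06), while Klf16 was at 14.8 and 14.7 RPKM at rest and 16.5 to 21.3 RPKM at 24 h. Klf5, Klf8, Klf14, Klf15 and Klf17 stayed under 1 RPKM in every library of the series, and Sp8 was listed at 0 in all 24.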

How the data were processed

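RNA sequencing of 24 libraries was used, for which the authors deposited 1 RPKM value per gene name and library, and the submitters' processing notes name BWA and GRCm38. The counting tool, its annotation and its strand setting are not given in the sources used here. Of 22010 entries 1 had no name, with a sum of 0, and 4073 were at 0 in every library. The mapped reads of each library were recovered first, from genes with 1 annotated transcript, as the total on which 483 to 595 genes agreed. With these totals, a gene length was then sought at which every value of a gene was within 0.001 of a whole number of reads. This gave the reads of 5 of the 10 members (Klf2, Klf6, Klf9, Klf10 and Klf12). Exact Poisson intervals (95%), conditional binomial intervals of ratios and the limit of 3 reads for a count of 0 cover counting error only.

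The members and the gene lists were chosen with earlier results of these data known. Genes whose mean reached 1 RPKM were fitted with limma 3.58.1 in R 4.3.3, with the trend option, on log2 of RPKM plus 0.5. The threshold was an adjusted p (Benjamini-Hochberg, over all genes) of 0.05 and a 2-fold difference. Each time point, with its 3 cultures together, was set against resting cells in a fit of 20 libraries, and conditions were compared in 18 cultures with time as a factor. Fold changes on this scale understate those of low genes. Actinomycin slopes are least-squares slopes of log2(RPKM + 0.1), with no test. The fits were also run on simulated data with independent noise around the mean of each gene. Apart from the change put in, those data held no time course or condition difference. They therefore cannot test the use of 3 conditions as the libraries of a time point.

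The genes named are all members, up to 4 of each list (the largest rises and falls at 24 h) and the 3 genes most correlated with each member. Genes of short lists outside this rule (Il6ra, Foxo1, Mef2c, Tgfbr2, Sp2, Sp3, Klf5, Klf8, Klf14, Klf15, Klf17 and Sp8) were named after their values were seen. Alternatives were other pseudocounts, filters and scalings, no trend, fewer libraries, and leaving out each resting library, each condition or each time point. For the slopes each actinomycin library was left out in turn. Promoters came from RefSeq, and 3′ untranslated regions and gene positions from GENCODE M21 (GRCm38). Protein sequences were not used here, and 1 gene in each of 2 lists is not reported here and was left out of the counts and medians of its list. Python 3.11.15, numpy 2.4.6, pandas 2.3.3, SciPy 1.17.1 and matplotlib were used.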

Additional observations from a re-analysis of the deposited data

How the results depend on the processing

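At 4 h, 284 genes were higher and 868 lower than in resting cells past the threshold. The number lower was 425 when a mean of 5 RPKM was required, where the members past the threshold went from 3 to 0, and the number higher was 551 under quantile normalization. At 24 h, 1147 instead of 1891 genes were lower with the filter of 5 RPKM, where fewer genes were tested. The causes of the other shifts were not tested. For Th2 minus Th0, the members past the threshold were 1 instead of 2 with only 12 to 24 h and 1 to 2 when a time point was left out, the lower value without 8 h. At 24 h the 7 members remained past the threshold in 15 of 15 alternatives, other than Klf4 and Klf11, which were not tested with the filter of 5 RPKM. Of 673 alternative fitted differences of the members, 662 moved by less than 1 SD. The share of genes past the threshold at 24 h that were higher was 42.3% with the values as deposited, 51.7% after scaling by the median of ratios, 54.0% under quantile normalization and 36.1% without the haemoglobin genes. The median of all genes then was -0.04, 0.10, 0.13 and -0.13. At 4 h the share was 24.7%, and 43.5% under quantile normalization. The slope of Klf7 with actinomycin was 0.0701 and, leaving out 1 library, between -0.1395 and 0.1552. No paired analysis was possible because each culture was sequenced once and the labels give the cultures no replicate numbers, beyond the match by time point in the comparison of conditions. Depth limits Klf12, and Klf9, with 81 to 337 reads per culture.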
